A study of Mus musculus with 6 samples.

Results

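Interferon-stimulated genes are the genes that cells switch on when interferons bind their receptors, and 67 of them were followed here in the kidneys of wild-type (WT) and Selenbp1 knockout (Selenbp1-KO) mice. They were taken by symbol: the Ifit, Ifitm, Ifi, Oas, Mx, Gbp, Irgm and Irf families, Stat2, Isg15, Isg20, Usp18, Rsad2, Ifih1, Ddx58, Bst2 and Zbp1, which gave 110 of the 56605 non-control probes of the array and 67 of its 37325 gene names. The rule used gene symbols and no measured value, but it was chosen with earlier results of these data known. All 6 animals were male C57BL/6J mice, 8 weeks old and fasted for 20 h, and their whole left kidneys were hybridised one mouse to an array, with 3 WT arrays (replicates 2, 3 and 4) and 3 Selenbp1-KO arrays (replicates 1, 2 and 3). No interferon, virus or other stimulus was given. The methods state that the WT mice were bought from a supplier and that the knockout line had been made earlier, and name no littermate controls, so that the deletion and the origin of the mice cannot be told apart.

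Type I and type III interferons act through their receptors and the kinases Jak1 and Tyk2 to form a complex with Stat2 and Irf9 that binds the interferon-stimulated response element, and type II interferon acts through gamma-activated sites. The induced genes code for proteins that bind or cut viral RNA, hold viruses at membranes, coat intracellular parasites or sense foreign nucleic acid, and for factors such as Irf7 that raise interferon production further. Many of them are also transcribed at a low, constant rate in unstimulated tissue, with macrophages and other leukocytes among the cells that transcribe them most. In C57BL/6 mice Mx1 carries a deletion and codes for no working protein.

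The response element was looked for in the promoters, since it is what ties these genes together by sequence. RefSeq promoter windows (GRCm38.p6, from 250 bases before the annotated gene start to 50 after it) were matched by symbol for 47 of the 67 genes, and the letters GAAANNGAAA, on either strand, were counted. They stood in the windows of 23 of the 47 genes (48.9%), against 3.99% of the 27025 genes with a window in the same table. All 5 of the Gbp genes with a window held the motif, as did 4 of 8 Oas genes and 3 of 4 Ifit genes, and none of the 4 other Ifi genes did. The gamma-activated site TTCNNNGAA, which reads the same on both strands, stood in 14 of the 47 (29.8%) against 9.55% of genes. The 140 bases before the start are printed for 3 genes that were called higher in the knockout by the test described below (Isg15, Oas1a and Ifi205) and for 5 that were not (Ifit1, Gbp2, Irgm1, Rsad2 and Bst2), because they show that the motif is common to both kinds. Each runs 5′ to 3′ along the gene's own strand, and the capitals mark matches to GAAANNGAAA or its reverse complement TTTCNNTTTC, which overlap one another in Isg15, Oas1a, Irgm1 and Bst2.
Isg15: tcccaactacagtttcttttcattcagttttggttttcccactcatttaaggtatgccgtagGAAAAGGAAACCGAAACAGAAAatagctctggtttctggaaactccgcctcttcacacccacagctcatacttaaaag
Oas1a: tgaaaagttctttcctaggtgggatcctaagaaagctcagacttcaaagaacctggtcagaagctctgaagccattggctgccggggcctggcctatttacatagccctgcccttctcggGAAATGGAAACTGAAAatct
Ifi205: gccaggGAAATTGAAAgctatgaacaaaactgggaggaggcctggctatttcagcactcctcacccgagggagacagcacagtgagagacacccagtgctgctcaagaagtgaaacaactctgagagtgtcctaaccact
Ifit1: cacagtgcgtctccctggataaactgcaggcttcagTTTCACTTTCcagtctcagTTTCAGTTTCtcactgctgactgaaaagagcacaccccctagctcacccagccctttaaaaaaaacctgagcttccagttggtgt
Gbp2: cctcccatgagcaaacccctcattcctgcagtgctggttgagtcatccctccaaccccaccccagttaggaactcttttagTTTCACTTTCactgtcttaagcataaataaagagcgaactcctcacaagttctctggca
Irgm1: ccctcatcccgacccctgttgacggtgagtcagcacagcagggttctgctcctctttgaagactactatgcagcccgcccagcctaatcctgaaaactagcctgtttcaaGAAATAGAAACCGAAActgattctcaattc
Rsad2: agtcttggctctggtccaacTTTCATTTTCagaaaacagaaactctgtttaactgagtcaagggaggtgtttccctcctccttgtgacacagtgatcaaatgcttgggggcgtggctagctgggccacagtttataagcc
Bst2: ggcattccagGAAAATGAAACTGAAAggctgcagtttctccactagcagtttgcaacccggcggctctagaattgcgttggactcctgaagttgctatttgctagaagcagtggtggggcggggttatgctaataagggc
In GRCm38.p6 these stretches lie for Isg15 at chr4:156200819-156200958 (minus strand), for Oas1a at chr5:120907526-120907665 (minus strand), for Ifi205 at chr1:174031756-174031895 (minus strand), for Ifit1 at chr19:34640749-34640888 (plus strand), for Gbp2 at chr3:142620523-142620662 (plus strand), for Irgm1 at chr11:48871421-48871560 (minus strand), for Rsad2 at chr12:26456453-26456592 (minus strand), and for Bst2 at chr8:71537473-71537612 (minus strand). Isg15 held 3 overlapping matches and Oas1a 2, while Ifit1, whose signal did not separate the genotypes, held 2 as well. Among the 8 genes that were called higher and had a window, 4 held the motif, and among the 38 that were not called 18 did (47.4%), so that the 2 shares were close. A match says only that the letters are there, and binding was not measured.

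**Figure D1:**
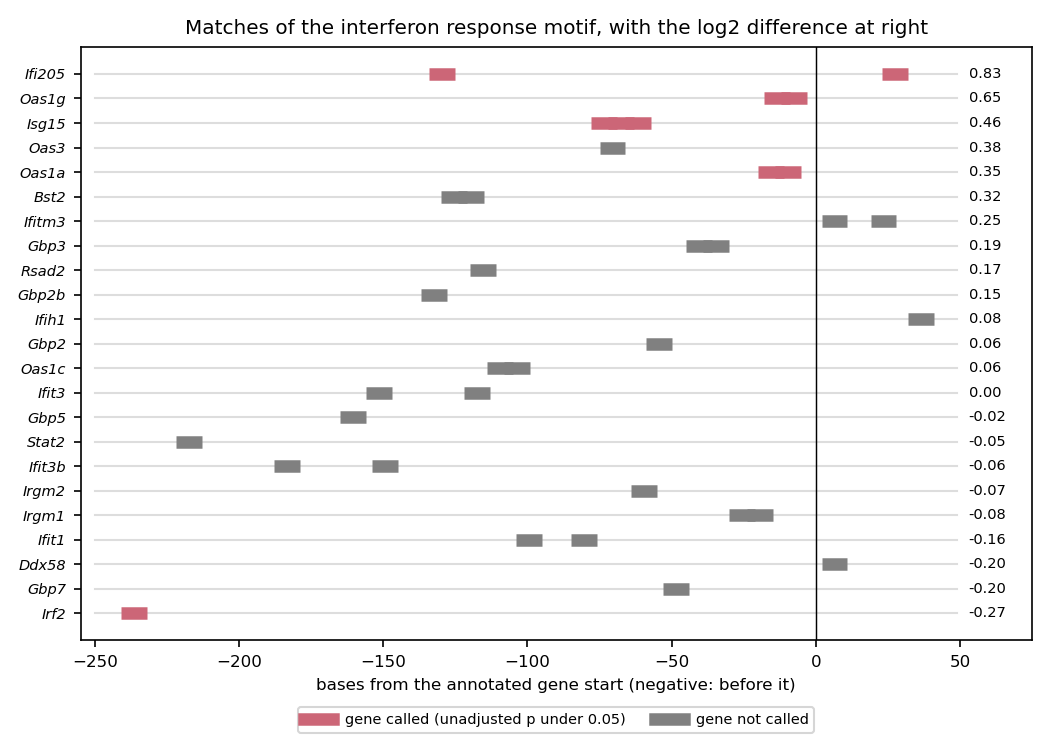
Matches to the interferon response motif in the promoter windows of the 23 interferon-stimulated genes that hold one. The horizontal axis gives bases from the annotated gene start, each block is 1 match, pink marks genes called at an unadjusted p under 0.05, and the number at right is the log2 difference, Selenbp1-KO minus WT. The genes with a match have differences from −0.27 (Irf2) to 0.83 (Ifi205). Most matches lie before the start, but those of Ddx58, Ifih1 and Ifitm3 lie only after it.

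Levels are given as log2 of the scanner's processed signal relative to the 75th percentile of the same array, so that 0 is that percentile. They describe 1 probe against itself across arrays and not 1 gene against another. Where a gene had several probes, the brightest over the 6 arrays was used. A gene was called where limma's moderated test across all probes gave an unadjusted p under 0.05, the threshold in the study's methods. All 6 arrays lay on 1 slide, with WT replicates 2 and 3 on one part of it and WT replicate 4 and the 3 Selenbp1-KO arrays on the other. The log2 signal of Selenbp1 itself was 7.07, 7.02 and 7.02 in the WT arrays and 4.13, 3.98 and 4.10 in the Selenbp1-KO arrays (difference −2.96, limma adjusted p = 0.00210), although whether this probe lies within the deleted part is not given in the sources used here. Proximal tubule markers were well above background on all 6 arrays in 6 of 6 genes, with none called.

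All 67 genes passed the detection filter, 52 of them well above background on all 6 arrays and 12 on none. Of the 67, 12 were called higher in the Selenbp1-KO kidneys and 1 lower, a share of 19.4%, and over all 37028 genes tested the same rule called 8.00%, with 6.87% higher and 1.13% lower. None held after limma's p-values were adjusted by Benjamini-Hochberg over all probes, each of the 13 having an adjusted p = 0.279, and none did with the methods' t-test. With limma's trend and robust options 1 of the 67 held, Isg20, and 9 held without WT replicate 4. The number of all genes that held is not given for these settings, so these counts have no share to be read against. Among genes well above background in at least 1 genotype, 10 of the 54 interferon-stimulated genes were called (18.5%) and 5.79% of all such genes. The 2 genotypes did not overlap in 16 of the 67 (23.9%), 14 higher and 2 lower, and in 14.1% of all genes. The median log2 difference of the 67 was 0.13, and that of all genes tested was 0.13 as well. In the genes well above background in at least 1 genotype the medians were 0.08 and 0.02. These counts rested on the scaling and on single arrays. Scaled by the array median, 23.9% of the 67 were called and 26.3% of all genes. The number called was 21 without WT replicate 4, when 31.9% of all genes were called and 31.3% of the interferon-stimulated genes, and it was 8 without Selenbp1-KO replicate 1 and 8 without Selenbp1-KO replicate 2, when 5.68% and 4.87% of all genes were called. With the part of the slide as a block, which sets the knockout arrays against WT replicate 4 alone, 9 were called and 6.08% of all genes, and the median was 0.010. Beside them 7 of 10 macrophage markers were called higher, and in whole kidney more cells of a type and more RNA per cell cannot be told apart.

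**Figure D2:**
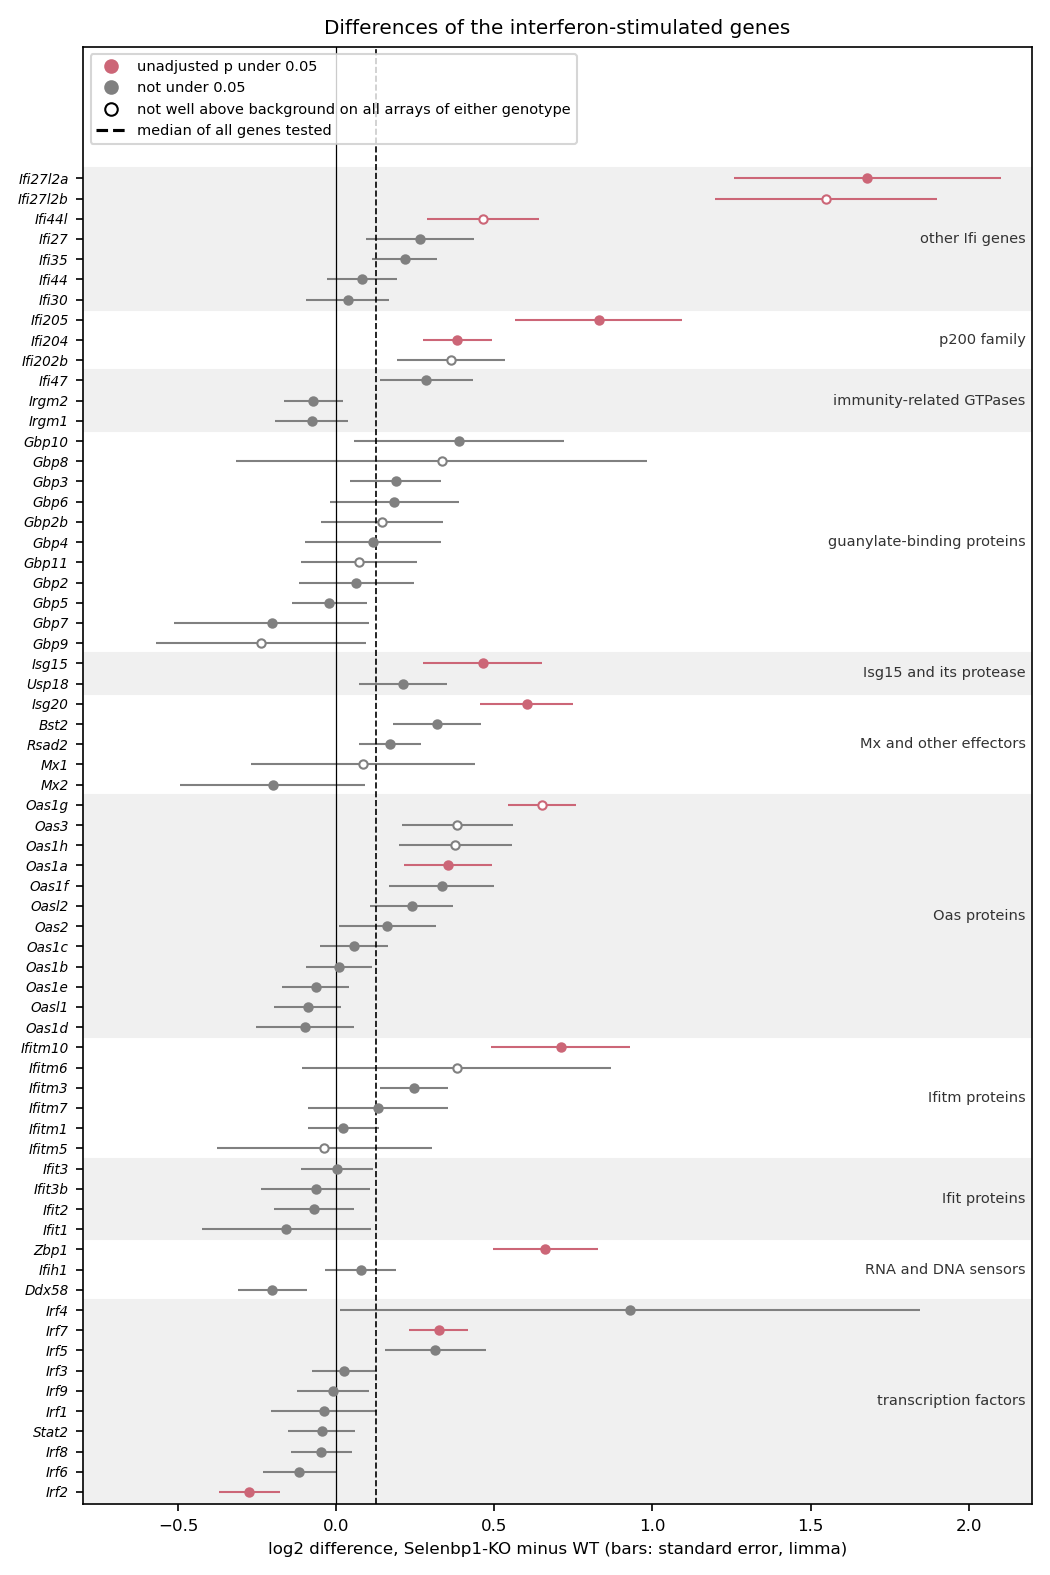
Log2 differences, Selenbp1-KO minus WT, of the interferon-stimulated genes named here, by role, with the standard error from limma as bars. Pink points had an unadjusted p under 0.05, open points were not well above background on all arrays of either genotype, and the dashed line is the median of all genes tested (0.13). Among genes well above background, Ifi27l2a has the largest difference (1.68), while the Ifit genes, the Gbp genes and most transcription factors lie around or near the line at 0.

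The probes of 5 genes that were called higher under at least 16 of the 19 alternative settings tried, and of the one gene called lower, are identified by the first 30 of their 60 bases as the scanner files give them.
Ifi27l2a probe: ccaaaaggcaccttcagaaccctcactgat
Isg20 probe: ccgcaatgtgtaaaaccaagaacactcccc
Ifi204 probe: agtcgggagaacctctctggaaccatactt
Zbp1 probe: caagctggtcttgaacccacagagatcttc
Irf7 probe: catcgaacacttcctcatggacctgggtca
Irf2 probe: atattatgcaaattcccagatctgaagacg
In mm9, the build of the array annotation, these probes map for Ifi27l2a at chr12:104680394-104680453 (minus strand), for Isg20 at chr7:86065136-86065195 (plus strand), for Ifi204 at chr1:175677647-175677706 (minus strand), for Zbp1 at chr2:173039307-173039366 (minus strand), for Irf7 at chr7:148449104-148449163 (minus strand) and for Irf2 at chr8:47932486-47932545 (plus strand). No pair of probes of different interferon-stimulated genes was 75% identical or more over at least 40 aligned bases without gaps. Probes were compared only with one another and not with transcripts. The comparison therefore cannot tell whether a probe also binds RNA of a similar gene, as in the Oas1 and p200 clusters.

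The group of other Ifi genes held the largest difference. Ifi27l2a, a small hydrophobic protein of the interferon alpha-inducible 27 family, had a log2 signal of 1.92, 2.70 and 1.69 in the WT arrays and 3.75, 4.50 and 3.10 in the Selenbp1-KO arrays. Every knockout array lay above every WT array. The difference was 1.68 (SE 0.42, a 3.20-fold ratio), and it stood at 2.09 with the part of the slide as a block, that is, against WT replicate 4 alone. A second, dim probe of the same gene gave 0.39. Its neighbour on chromosome 12, Ifi27l2b, was called as well but was not well above background on any array, so no fold is given. Ifi27, the third of these neighbours, read 3.83, 3.74 and 3.68 in WT and 4.09, 4.27 and 3.68 in the knockout, where replicate 3 fell inside the WT range (0.27). Ifi35, which binds Nmi and acts in innate signalling, read 2.13, 2.08 and 2.25 against 2.44, 2.36 and 2.31. Its genotypes did not overlap, and the difference of 0.22 was not called. Of the rest of the group, Ifi30, the lysosomal thiol reductase of antigen processing (0.04), and Ifi44 (0.08) were not called, and Ifi44l was called but not well above background on any array.

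In the p200 family, whose HIN domains bind DNA, both genes with measurable signal were called higher. Ifi204 read −1.24, −1.09 and −1.24 in WT and −0.85, −0.69 and −0.89 in the knockout. The ranges did not meet, and the difference was 0.38 (SE 0.11), with 0.56 from its second probe, which was called too. Ifi205 read −4.29, −3.35 and −4.12 in WT and −3.24, −2.91 and −3.12 in the knockout. WT replicate 3 stood near the knockout arrays, and the difference was 0.83 (SE 0.26). The call held in 3 of 6 fits that left out 1 array. The third gene, Ifi202b, was not well above background on any array.

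Among the effectors that attack viruses, Isg20 showed the most repeatable difference. Isg20 is an exonuclease that degrades single-stranded RNA. Its log2 signal was −0.64, −0.76 and −0.79 in WT and 0.05, −0.03 and −0.39 in the knockout. All knockout arrays were above all WT arrays by 0.60 in the mean (SE 0.15, 1.52-fold), and a second probe, called as well, gave 0.73. It was called under all 19 alternative settings. Rsad2 (viperin), which makes a chain-terminating nucleotide, read −0.10, −0.13 and −0.06 against 0.13, 0.11 and −0.02. Its genotypes did not overlap, but the difference of 0.17 was not called. Bst2 (tetherin), which ties budding virions to the cell surface, read 0.30, 0.20 and 0.58 against 0.77, 0.71 and 0.55. WT replicate 4 lay above Selenbp1-KO replicate 3, and the difference of 0.32 was not called. Mx1 was not well above background on any array, and Mx2 differed by −0.20 without a call.

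Isg15, the ubiquitin-like protein joined to other proteins during an interferon response, read 0.15, 0.40 and 0.74 in WT and 1.06, 0.95 and 0.68 in the knockout. Its genotypes overlapped at WT replicate 4 and Selenbp1-KO replicate 3. The difference of 0.46 (SE 0.19) passed the threshold only just, with an unadjusted p that rounds to 0.05, and was 0.15 with the part of the slide as a block. Usp18, the protease that removes Isg15 and damps the receptor, differed by 0.21 without a call.

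Those Oas proteins that are active enzymes make 2-5A, the signal that turns on RNase L. Of 12 genes, 9 were well above background on all arrays and 2 were called higher. Oas1a read −0.83, −0.95 and −0.57 in WT and −0.32, −0.43 and −0.53 in the knockout. WT replicate 4 and Selenbp1-KO replicate 3 were nearly level, and the difference of 0.35 (SE 0.14) was 0.14 with the part of the slide as a block. The call held in 1 of 6 fits that left out 1 array. The other gene called, Oas1g, was not well above background on any array. Oas1b, the brightest probe of the family, read 4.40, 4.39 and 4.58 against 4.44, 4.50 and 4.45, a difference of 0.01. The ranges crossed. Oas2 (0.16), Oasl2 (0.24) and Oasl1 (−0.09) were not called. A second Oasl1 probe, well above background on all arrays, pointed the other way (0.30), with no overlap and no call.

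The Ifitm proteins keep viruses from fusing with cell membranes. Ifitm3 read 2.19, 2.27 and 2.28 in WT and 2.55, 2.57 and 2.36 in the knockout. The genotypes did not overlap, with a difference of 0.25 that was not called. Ifitm10, another member of the family, read −5.09, −4.59 and −4.42 against −4.28, −3.86 and −3.83 and was called higher by 0.71 (SE 0.22), close to background and with 0.21 and 0.10 from its other probes. It was 0.43 and no longer called with the part of the slide as a block, and 0.37 with normexp background correction. Ifitm7, by its brightest probe, read 7.11, 7.56 and 6.97 against 7.50, 6.99 and 7.53 and overlapped. That probe carries an Ensembl transcript and maps to chromosome 16 in mm9, while Ifitm1, Ifitm3, Ifitm5 and Ifitm6 map to chromosome 7. The RefSeq probe of Ifitm7 read 1.89, 1.94 and 1.81 against 2.18, 2.17 and 2.00, without overlap and without a call (0.24).

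None of the 4 Ifit genes, whose proteins bind the 5′ end of foreign RNA, was called. Ifit3 read 0.53, 0.60 and 0.72 in WT and 0.76, 0.52 and 0.59 in the knockout, a difference of 0.00 (SE 0.11). The values interleaved. The lowest difference in the group was that of Ifit1, at −0.16 (SE 0.27). All 4 were well above background on every array, so these genes were measured and not missed for lack of signal.

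The GTPases that act on vacuoles of intracellular pathogens were not called either. This held for 11 of 11 Gbp genes, 4 of which were not well above background on any array, and their median difference was 0.12. Gbp2, the brightest of them, read −1.12, −0.96 and −0.66 in WT and −0.75, −0.67 and −1.13 in the knockout, with WT replicate 2 and Selenbp1-KO replicate 3 equally low (0.06). Irgm1 read 1.63, 1.79 and 1.77 against 1.74, 1.50 and 1.72 (−0.08), an interleaved set. Irgm2 differed by −0.07 and Ifi47 by 0.28.

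Of the 3 sensors, Zbp1 was called higher. Zbp1 binds Z-form nucleic acid and can start necroptosis. It read −3.68, −3.57 and −3.20 in WT and −2.65, −2.86 and −2.96 in the knockout. The ranges did not meet, and the difference was 0.66 (SE 0.17, 1.58-fold). With the part of the slide as a block it was 0.38 and no longer called. Ddx58 (RIG-I), the cytosolic sensor of uncapped RNA, went the other way with 1.23, 1.11 and 1.30 in WT and 0.91, 1.06 and 1.06 in the knockout. The genotypes did not overlap, and the difference of −0.20 was not called. Its other probes with signal well above background gave −0.24 and −0.34, the latter called, and the fourth was dim. Ifih1 (MDA5), the sensor of long double-stranded RNA, differed by 0.08.

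The transcription factors split in direction. Irf7, the factor that amplifies type I interferon production, read 1.70, 1.69 and 1.76 in WT and 2.08, 2.04 and 2.00 in the knockout. Both genotypes were tight and apart by 0.32 (SE 0.09), and a second probe gave 0.24 without a call. With the part of the slide as a block the difference was 0.28 and no longer called. Irf2, which binds the same elements and can oppose Irf1, read −1.11, −1.18 and −1.13 in WT and −1.43, −1.34 and −1.46 in the knockout. It was the only one of the 67 called lower, at −0.27 (SE 0.10). The call was lost with the part of the slide as a block (−0.28) and held in 2 of 6 fits that left out 1 array. Irf5 read −0.94, −1.09 and −1.46 against −0.77, −0.91 and −0.87. The genotypes did not overlap, but the difference of 0.31 was not called. With the part of the slide as a block it was 0.61 and was called. Of the factors that carry the receptor's signal, Stat2 differed by −0.05 (SE 0.11) and Irf9 by −0.01 (SE 0.11), and neither was called. Irf3, the brightest of the factors, read 3.76, 3.73 and 3.92 against 3.85, 3.80 and 3.84 and overlapped (0.03). Irf4 varied most, from −4.48 to −2.23 in WT and from −4.07 to −0.95 in the knockout, and was not called.

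**Figure D3:**
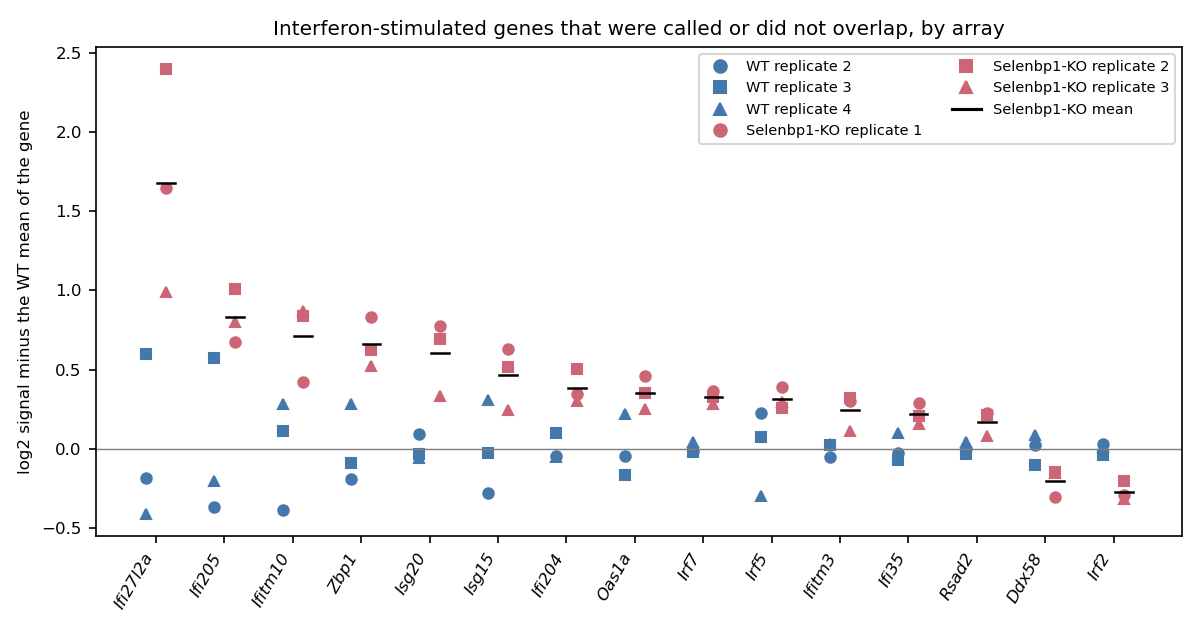
Log2 signal of each array minus the WT mean of the gene, for the 15 interferon-stimulated genes that were called or did not overlap between genotypes and were well above background on all arrays of at least 1 genotype. Blue marks are WT arrays, pink marks Selenbp1-KO arrays, each shape is 1 replicate, and the black line is the Selenbp1-KO mean. Isg15 is the one gene of the 15 whose genotypes overlap, and Ddx58 and Irf2 are the ones that lie below the WT arrays.

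Of the genes with several probes, Isg20, Ifi204 and Zbp1 were each called by both of their probes, the second one of Zbp1 being dim. In 26 of the 34 genes with several tested probes, all probes had the same direction. Second probes of Ifih1 (−0.61) and Ifi44 (−1.03), not well above background on any array, were called lower, against the direction of the brightest probes. The arrays also differed as wholes. Over the 52 genes well above background everywhere, the median deviation from the 6-array mean was −0.11 for WT replicate 2, −0.09 for WT replicate 3 and 0.06 for WT replicate 4. For the knockout arrays it was 0.14, 0.09 and −0.01, in the order of their numbers. WT replicate 4 lay above Selenbp1-KO replicate 3, so these medians overlapped between genotypes. WT replicate 4 was the highest of the WT arrays in 32 of the 52 genes (61.5%), against 48.1% of all 18364 genes measured as well, and Selenbp1-KO replicate 3 was the lowest knockout array in 34 of the 52 (65.4%), against 29.4%.

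Markers of other cell types were read on the same arrays. Of 10 macrophage markers, 7 were called higher (C1qa, C1qb, C1qc, Cd68, Cd163, Lyz2 and Mrc1), with a median of 0.54, and none was without signal. Their summed signal, in units of the 75th percentile, was 16.2 to 19.8 in WT and 22.2 to 24.2 in the knockout. Its brightest probes were those of Csf1r (0.17), which overlapped between genotypes, and Lyz2 (0.74). Csf1r, Adgre1 (0.36) and Cd14 (0.13) were the macrophage markers not called. Unlike that of the 52 interferon-stimulated genes, the macrophage median deviation put all WT arrays (−0.22 to −0.18) below all knockout arrays (0.15 to 0.40). Some role groups within the 52, of 2 to 5 genes each, put the genotypes apart as well. The other Ifi genes did so (WT −0.20 to −0.05, knockout 0.06 to 0.18), as did the p200 genes (−0.51 to 0.03 and 0.21 to 0.45). The Ifitm genes and the effectors with Isg20 were also apart, and the remaining role groups overlapped. Of 9 T and NK cell markers tested, 1 was called (Cd3e), 4 were not well above background on any array, and the summed signal was 1.90 to 2.54 in WT and 2.32 to 2.53 in the knockout. Over the 5 T and NK markers well above background on all 6 arrays, WT replicates 2 and 3 were low (−0.65 and −0.49). WT replicate 4 (0.28) lay among the knockout arrays (−0.02 to 0.30), a pattern like that of the interferon-stimulated genes. The 18364 genes with the same filter had it on a smaller scale (−0.02, −0.03 and 0.02 in WT, 0.01 to 0.02 in the knockout). All 37028 genes, dim ones included, gave −0.12, −0.12 and 0.07 in WT and 0.04 to 0.14 in the knockout. The proximal tubule markers also had WT replicates 2 and 3 lowest (−0.09, −0.10 and 0.11 in WT, −0.02 to 0.05 in the knockout). For plasmacytoid dendritic cells, the main interferon-producing cells, none of 3 markers was called. Siglech read 5.36 to 5.91 in WT and 5.37 to 5.83 in the knockout (−0.07). Ly6d read 0.59 to 1.06 and 0.61 to 2.46 (0.80), and Ccr9 gave no signal well above background. Whether the Siglech and Ly6d signals in whole kidney come from these cells was not tested. Of 5 B cell markers 1 was called, of 6 neutrophil and 6 endothelial markers none. The summed neutrophil signal was only just apart, at 2.92 to 3.43 in WT and 3.46 to 3.84 in the knockout. Its brightest probe was that of Ly6g (0.32). Of the 6 differences 5 were above 0, as were 25336 of the 37028 over all genes tested, and Elane was lower (−0.18). The part of these cells in the differences was not tested.

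**Figure D4:**
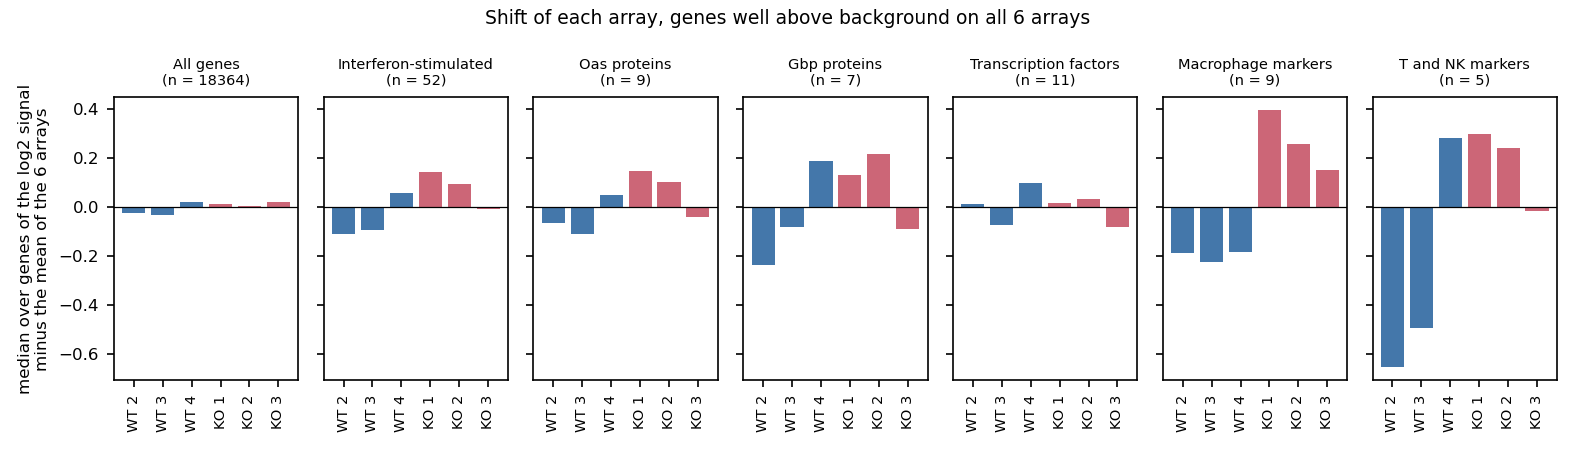
Median over genes of the log2 signal minus the mean of the 6 arrays, for genes well above background on all 6 arrays. Blue bars are WT arrays and pink bars Selenbp1-KO arrays, and n is the number of genes. The interferon-stimulated genes place WT replicate 4 (0.06) above Selenbp1-KO replicate 3 (−0.01), the T and NK cell markers do so too, and the macrophage markers separate the genotypes. Some role groups not drawn here, such as the p200 and other Ifi genes, separate them as well.

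Of 90 further genes of the interferon pathway outside the symbol rule, 86 were tested and 5 were called, all higher, a share to be read against the same 8.00% of all genes. With the part of the slide as a block 5 were called again, but 1 was higher and 4 were lower. Their median difference was 0.06. The ligands gave little signal, since 13 of 16 were not well above background on any array and 1, Ifnl3, was on all (0.06). The 2 ligands called were Ifna9, on 2 arrays well above background, and Ifna4, on none. None of the 9 receptor chains and kinases was called: Ifnar1 (−0.11) and Ifnar2 (0.07), the type I receptor, Ifngr1 (0.03) and Ifngr2 (0.15), the type II receptor, Ifnlr1 (−0.13) and Il10rb (−0.08), the type III receptor, and the kinases Jak1 (0.00), Jak2 (−0.25) and Tyk2 (0.13). Nor was any of 12 genes that start interferon production or 8 negative regulators. Of 41 further induced genes, 3 were called. Psmb8, a catalytic subunit of the immunoproteasome, read −0.73, −0.58 and −0.60 in WT and −0.02, 0.02 and −0.43 in the knockout, without overlap (0.50). Psmb9, its partner subunit, read −0.35, −0.24 and −0.13 against 0.23, 0.43 and −0.03, again apart (0.45). Slfn5 read 0.40, 0.52 and 0.58 against 0.996, 0.82 and 0.96, also apart (0.42).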

How the data were processed

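RNA of 6 kidneys was labelled with Cy3 and hybridised to 1-colour Agilent arrays. The authors deposited Feature Extraction output with intensity per spot and a detection p-value per probe (version 10.7.1.1 in the file headers, 9.5.1.1 in the submitters' processing notes). They also deposited a value table of quantile-normalized intensities, of which log2 was taken here. Here the processed signal was divided by each array's 75th percentile and log2 taken; control spots and outlier-flagged spots were left out, spots of a probe averaged, and the 56097 probes kept whose detection p was below 0.05 on 1 array or more. "Well above background" is the scanner's own call. limma 3.58.1 (R 4.3.3, lmFit and eBayes, two-sided) was fitted over all of them without covariates and tested on simulated data. The number of arrays limits the precision, and the smallest p of an exact permutation test of 3 against 3 is 0.1. Genes were named from the files and RefSeq accessions. Values by array are given for members at an unadjusted p under 0.05 or without overlap whose probe was well above background on all arrays of a genotype, and for the brightest member of each role. The symbol rule also took 1 gene that is counted in the totals and is not reported here. The members, lists and tests were chosen with earlier results of these data known. Alternatives changed the background correction, scaling, filter, variance model, test, block, probe rule, names and the arrays included.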

Additional observations from a re-analysis of the deposited data

How the results depend on the processing

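No difference of the 18 genes called or without overlap changed direction under any of the 19 alternatives, or the 18 that could be run for Oas1g, Ifi27l2b and Ifi44l, which the filter on dim probes removed. With 1 array left out, the calls of Isg20, Ifi204, Zbp1 and Ifi27l2a held in 6 of 6 fits and that of Irf7 in 5. Those of Ifitm10 held in 4, Ifi205 in 3, Isg15 and Irf2 in 2 and Oas1a in 1. The number of interferon-stimulated genes called, 13 of 67, ranged from 8 to 21 when single arrays were left out and from 9 to 18 otherwise, and that of the further pathway genes, 5 of 86, from 1 to 14 when single arrays were left out. The latter was 8 with normexp background correction, quantile normalization, the authors' value table, the methods' t-test, the replicate block and the mean of all probes, and 9 with limma's trend and robust options. Of those 8, 5 were higher with quantile normalization and with the authors' values, where all 5 had been. The share of the 67 called also has to be read against all genes under each setting. It was 23.9% against 26.3% with scaling by the array median, and 17.9% against 11.9% with normexp background correction. With quantile normalization it was 23.9% against 9.11%, and with the trend and robust options 26.9% against 14.1%. After adjustment, 1 interferon-stimulated gene passed with the trend and robust options (Isg20, adjusted p = 0.00558), 9 passed without WT replicate 4, and none under the other settings. Without WT replicate 4, 31.9% of all genes were called before adjustment, and the number of all genes passing adjustment is not given. Quantile normalization moved the median of all genes from 0.13 to 0.00 and that of the interferon-stimulated genes from 0.13 to 0.04, and the share of higher among all calls from 85.8% to 57.7%, with 14 of 16 interferon-stimulated genes called still higher. With the part of the slide as a block their median was 0.010 and 9 were called (6.08% of all genes), 8 higher and 1 lower, 6 of them among the 13, while only 40.1% of all calls were higher and 1 of the 5 pathway genes called was. Replicates 2 and 3 exist in both genotypes but are separate mice that share only a number: with that number as a block 11 were called, 6 of them among the 13, when 33.2% of all genes were, and the deviations of like-numbered arrays correlated at 0.17 and 0.19, those of unlike-numbered ones at −0.33 to 0.19. The cause of these changes was not tested. For genes not well above background on any array no fold is given.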
